A study of Homo sapiens with 6 samples.

Results

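The genes described here are 10 genes by which an epithelial-mesenchymal transition (EMT) is usually followed. They are 6 transcription factors (SNAI1, SNAI2, ZEB1, ZEB2, TWIST1 and TWIST2), 3 cadherins (CDH1, CDH2 and CDH11) and fibronectin (FN1). They were chosen by symbol, and each symbol matched 1 of the 57773 rows of the deposited table of gene counts. The 9 other than CDH1 passed the filter on low counts, which kept 16290 genes for testing.

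The study sequenced SW872 cells, which are a human liposarcoma line in long use, with and without Apatinib, a small molecule inhibitor of the VEGFR2 receptor tyrosine kinase. The Apatinib group held 3 replicates of cells exposed to 18 μM Apatinib for 24 h, and the Control group held 3 replicates whose treatment is given as none. The protocol text on the control records repeats the Apatinib treatment, and the title and the treatment entry were followed. All 6 came from the same line in RPMI medium with fetal bovine serum, so the comparison speaks for 1 cell line, 1 dose and 1 time. The study calls the replicates biological, but no source says whether they were separate cultures, so that the p values measure the spread between these samples. The libraries held between 17043314 and 22067558 counts.

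EMT is the shift of cells from a sheet held together by E-cadherin to single, motile cells rich in vimentin, N-cadherin and fibronectin. The SNAIL, ZEB and TWIST factors bind E-box sequences and repress epithelial genes, of which CDH1 is the best known target. Cells of mesenchymal origin, such as those of sarcomas, often hold these factors without having passed through such a transition.

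Marker genes were read to check the labelled cell type. Vimentin (VIM) lay between 881 and 1263 FPKM, a unit that divides fragments by transcript length and by the size of the library. Of the other mesenchymal markers, ENG lay between 133 and 184 FPKM and PDGFRB between 26.8 and 40.8 FPKM. NT5E (3.44 to 6.01 FPKM), COL1A1 (3.49 to 4.57), THY1 (1.02 to 1.81) and LUM (0.435 to 0.883) were lower. The 7 mesenchymal markers summed to between 1742 and 2026 CPM with Apatinib and between 1597 and 1777 CPM in the controls, with overlap. Of the 6 epithelial markers, EPCAM did not exceed 0.130 FPKM, KRT19 0.629 FPKM, CLDN4 0.978 FPKM and KRT7 1.27 FPKM. The keratins KRT18 and KRT8, which are on a further list below, lay between 133 and 184 FPKM and between 21.0 and 41.4 FPKM. Of the adipocyte markers, PPARG lay between 19.7 and 27.1 FPKM, whereas FABP4 and ADIPOQ had 0 counts in all 6 libraries. Of the leukocyte markers, PTPRC and MS4A1 had 0 counts throughout, CD3E at most 2 counts per library, CD14 between 40 and 107 counts, and CD68 at most 1 count per library. The 8 adipocyte markers summed to between 65.6 and 89.5 CPM with Apatinib and between 61.4 and 63.0 CPM in the controls, without overlap. PPARG alone gave 50.0 to 64.2 CPM with Apatinib and 50.1 to 51.9 CPM in the controls, with overlap (edgeR log2 fold change 0.11, FDR 0.597). LPL among the adipocyte markers was a DEG by the limits given below (edgeR log2 fold change 0.84, FDR 0.0237). The 5 leukocyte markers summed to between 2.29 and 3.84 CPM with Apatinib and between 4.33 and 5.17 CPM in the controls, also without overlap, and nearly all of that sum was CD14. In FPKM, which disagrees with the counts for CD68, CD68 stood at 11.8, 8.56 and 6.78 with Apatinib and at 3.30, 1.79 and 2.85 in the controls, without overlap in the other direction. The part of these markers in the results was not tested.

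Levels of different genes were compared in FPKM only, since CPM (the share of a library's counts, scaled by the TMM factors of edgeR) does not allow for gene length. FN1 stood far above the others with a mean of 335 FPKM over the 6 libraries, and only 113 of the 33823 genes with an FPKM above 0 had a higher mean. TWIST2 followed with a mean of 15.9 FPKM, SNAI1 with 15.5 FPKM, SNAI2 with 11.2 FPKM and CDH2 with 10.6 FPKM. Below them came ZEB1 with a mean of 5.90 FPKM, TWIST1 with 4.84 FPKM and ZEB2 with 3.12 FPKM. CDH11 reached a mean of 0.242 FPKM, and CDH1 0.00776 FPKM.

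The steps from FN1 to TWIST2, from CDH2 to ZEB1, from ZEB2 to CDH11 and from CDH11 to CDH1 were clear, with no overlap between the libraries. The ranges of TWIST2 and SNAI1 overlapped, and TWIST2 was the higher of them in 3 of 6 libraries. SNAI2 and CDH2 also overlapped, and SNAI2 exceeded CDH2 in 1 library only, Apatinib replicate 2. The ranges of ZEB1 and TWIST1, of SNAI1 and SNAI2, and of TWIST1 and ZEB2 overlapped as well, although TWIST1 exceeded ZEB2 within each of the 6 libraries.

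**Figure D1:**
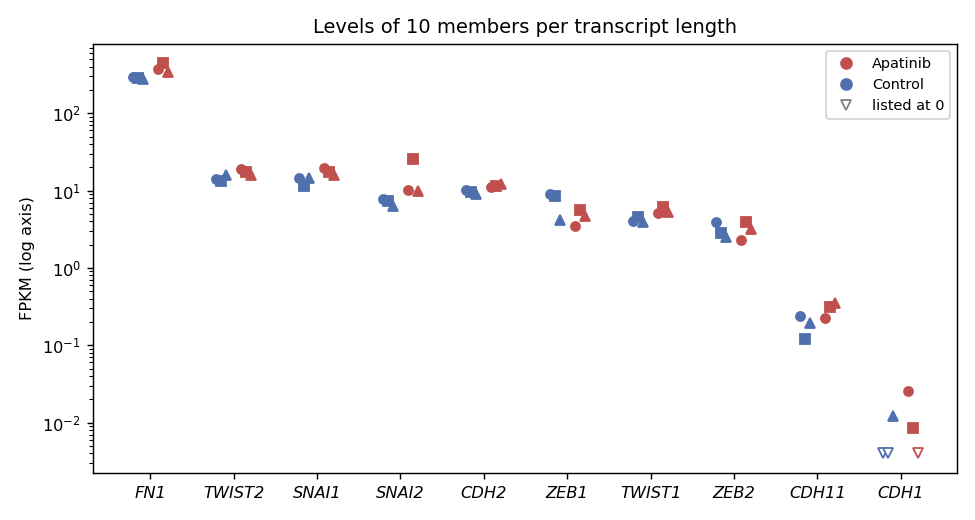
FPKM of the 10 genes in each library on a log axis, with Apatinib in red, Control in blue and circles, squares and triangles for replicates 1, 2 and 3. Open triangles at the bottom mark libraries in which CDH1 is listed at 0, FN1 lies between 273 and 440 FPKM, and 7 genes lie between 2.30 and 25.8 FPKM.

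The quasi-likelihood F test of edgeR was adjusted over all 16290 genes tested, and a differentially expressed gene (DEG) had to reach an FDR below 0.05 together with a log2 difference of more than 0.5 either way. Under this rule SNAI2 was the only DEG among the 9 tested members, and it was upregulated. Over all genes tested 11.5% were DEGs, with 5.97% upregulated and 5.48% downregulated, so 1 of 9 lies near the background. FN1 also had an FDR under 0.05 but a fold change below the limit, which makes 2 of 9 at that FDR against 12.9% of all genes. The libraries of the groups did not overlap in CPM for 5 of 9 members, against 33.2% of all genes tested, and in all 5 of them (SNAI1, SNAI2, TWIST1, CDH2 and FN1) the Apatinib libraries were the higher, against 17.5%. The median log2 fold change of the 9 members was 0.26, beside 0.00 for all genes tested, and the values ran from -0.64 for ZEB1 to 1.08 for SNAI2. In RNA from whole cultures, fewer cells with a transcript and less transcript per cell cannot be told apart.

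The calls depended on single libraries and on the tool. Control replicates 1 and 2 differed by a mean chi-square of 2.27 per gene, while the other pairs within a group differed by 18.2 to 44.5. Without Control replicate 1 no member was a DEG by edgeR, 3 members had an unadjusted p under 0.05 in place of 5, and 275 genes were DEGs in all in place of 1866. Without Control replicate 2 no member was a DEG, 2 had an unadjusted p under 0.05, and 300 genes were DEGs. The share of all genes with an unadjusted p under 0.05 was not counted, so such counts, here and below, have no background beside them. Without Apatinib replicate 1 the DEGs were 795, SNAI2 among them. With DESeq2, the tool of the study's methods, 1 member was again a DEG, but that member was ZEB1, downregulated, and not SNAI2. Over all genes DESeq2 called 2054 of 14901, 1003 upregulated and 1051 downregulated.

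**Figure D2:**
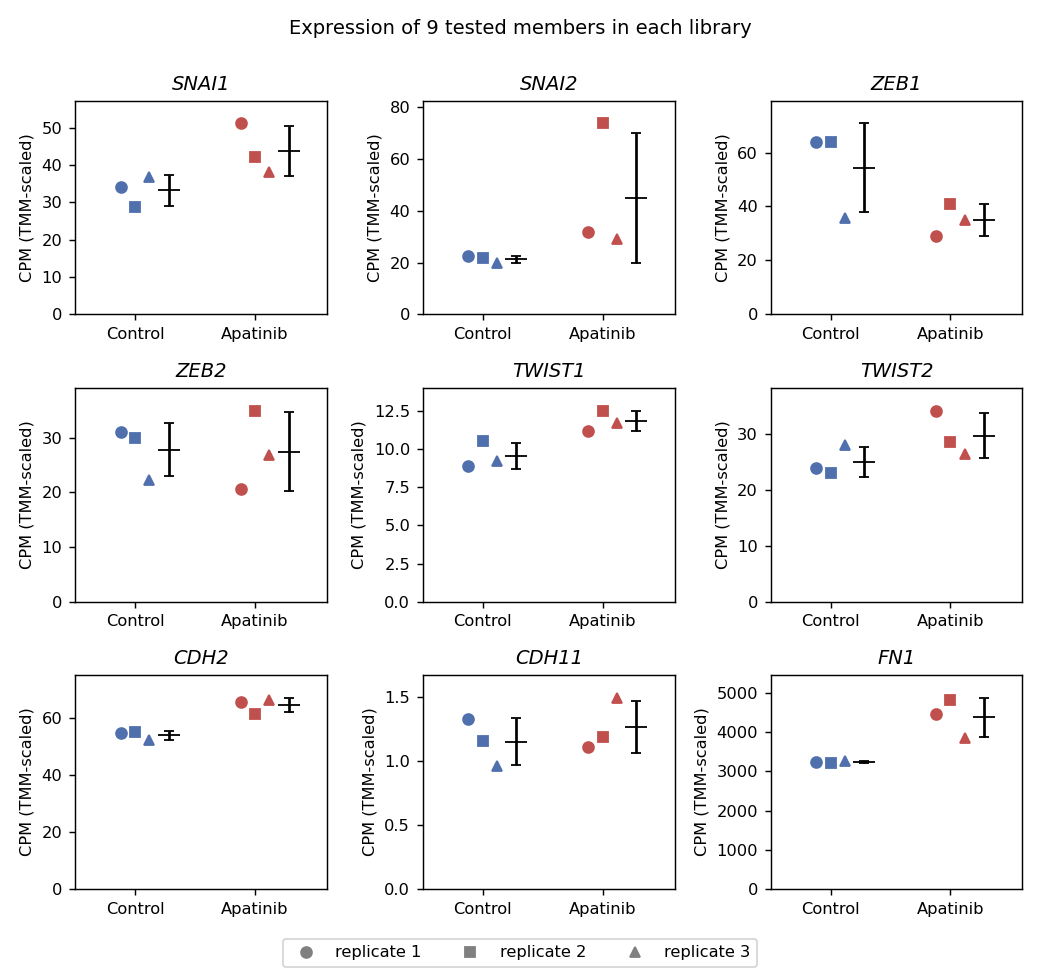
CPM (TMM-scaled) of the 9 tested members in each library, with Control in blue and Apatinib in red, replicates marked by shape, and the mean ± SD of 3 replicates in black beside them. Each axis starts at 0. SNAI2 shows Apatinib replicate 2 alone at 73.8 CPM, and ZEB1 shows Control replicate 3 at 35.5 CPM, among the Apatinib libraries.

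Of the SNAIL factors, which are zinc finger repressors, SNAI2 (Slug, ENSG00000019549) showed the largest change of the set in the fit of all 6 libraries. It stood at 31.9, 73.8 and 29.02 CPM in Apatinib replicates 1, 2 and 3, and at 22.5, 21.6 and 19.8 CPM in the controls. Every Apatinib library lay above every control, but Apatinib replicate 2 lay far above its own group, and the means were 44.9 ± 25.1 and 21.3 ± 1.39 CPM (SD, n = 3 each). The log2 fold change was 1.08 with a standard error of 0.29 and an FDR of 0.0368 (edgeR), which is 2.11-fold with a 95% interval from 1.35 to 3.29.

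SNAI2 remained a DEG without Apatinib replicate 2, with a log2 fold change of 0.52 and an FDR of 0.0329 by edgeR. The call was lost without Control replicate 1 (FDR 0.107) and without Control replicate 2 (FDR 0.111), and also with DESeq2, which gave a log2 fold change of 1.08 and an FDR of 0.0701. Apatinib replicate 2 lay at least 2-fold above each of the other libraries in 87 of 16290 genes (0.534%), whereas no other library did so in more than 8.

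The genes whose pattern over the 6 libraries was most like that of SNAI2 were TSLP, HBEGF and RCAN1. Likeness was taken as the root mean square difference of log2 CPM after centring each gene on its own mean. TSLP, a cytokine of epithelial and stromal cells, differed from SNAI2 by 0.0317 and had 50, 128 and 46 counts with Apatinib and 35, 35 and 40 without. HBEGF, an EGF receptor ligand, differed by 0.0800, and RCAN1, an inhibitor of calcineurin, by 0.0985. Having been chosen for that pattern, they had to show a fold change near that of SNAI2, and their values are given as a description. RCAN1 met the limits for a DEG, with a log2 fold change of 1.25 and an FDR of 0.0236 (edgeR). TSLP had a log2 fold change of 1.15 at an FDR of 0.0605, and HBEGF one of 0.94 at an FDR of 0.0613.

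SNAI1 (Snail, ENSG00000124216) stood at 51.1, 42.1 and 38.1 CPM with Apatinib and at 34.1, 28.8 and 36.7 CPM in the controls. The groups did not overlap, though Apatinib replicate 3 and Control replicate 3 were close to each other, and the means were 43.8 ± 6.66 and 33.2 ± 4.07 CPM (SD, n = 3 each). The log2 fold change of SNAI1 was 0.40 ± 0.15 (SE), or 1.32-fold with a 95% interval from 1.05 to 1.65, and the edgeR FDR of 0.0992 missed the limit. No fit with 1 library left out made SNAI1 a DEG, and its log2 fold change in those fits ranged from 0.28 to 0.49.

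ZEB1 and ZEB2 encode zinc finger and homeodomain proteins that recruit CtBP to E-boxes. ZEB1 (ENSG00000148516) was the member with the lowest fold change. It stood at 29.1, 40.9 and 34.9 CPM with Apatinib and at 63.8, 64.0 and 35.5 CPM in Control replicates 1, 2 and 3. Control replicates 1 and 2 exceeded all the Apatinib libraries, but Control replicate 3 fell within their range, so that the groups overlapped. The means were 34.98 ± 5.92 and 54.4 ± 16.4 CPM (SD, n = 3 each).

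The log2 fold change of ZEB1 was -0.64 with a standard error of 0.21 and a 95% interval from -1.11 to -0.17, and the edgeR FDR was 0.0710. The test was passed with DESeq2 (log2 fold change -0.63, FDR 0.0241) and without Control replicate 3 (edgeR log2 fold change -0.87, FDR 0.00333). Exons of ZEB1 overlap those of its antisense neighbour ZEB1-AS1, and no source says whether counting used the strand, so that reads of the pair cannot be told apart where they overlap. The same holds for CDH1, CDH2, TWIST1 and ZEB2, each with a partner on the opposite strand, while CDH11 overlaps a transcript on its own strand. ZEB1-AS1 itself had 109 to 164 counts with Apatinib and 129 to 158 in the controls, with a log2 fold change of -0.03 and an FDR of 0.941 (edgeR), the sign of which turned without Apatinib replicate 1 and without Control replicate 1 or 2. SNAI3-AS1, the other antisense transcript tested, had a log2 fold change of 0.33 and an FDR of 0.250 (edgeR).

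The E-box that SNAIL and ZEB factors bind was searched in the promoter windows that could be read. RefSeq windows on GRCh38.p14, from 250 bases before to 50 bases after an annotated start, were at hand for 12 starts, of which 7 belong to ZEB1, 2 to CDH2 and 1 each to ZEB2, TWIST2 and FN1. The letters CACCTG and CAGGTG, which are the same site read on either strand, occurred in 2 of the 12 windows, both of ZEB1, a share near that of all genes, 7231 of 35116 windows (20.6%). The 4 sites are shown with their surroundings, on the + strand of chromosome 10 and 5′ to 3′, with the E-box in capitals, because this E-box is the one that SNAIL and ZEB proteins are known to bind. A match describes letters only and is not a measured binding site.
ZEB1 chr10:31318348-31318377: ccgaggtgacagCAGGTGagggccgggtgc
ZEB1 chr10:31318966-31318995: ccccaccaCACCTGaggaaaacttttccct
ZEB1 chr10:31319119-31319148: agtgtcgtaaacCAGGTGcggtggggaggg
ZEB1 chr10:31319236-31319265: tggcggatggcccCAGGTGtaagcgcagaa
The first of these belongs to 1 annotated start of ZEB1 and the other three to another, with the E-boxes beginning at base -57 from the former and at bases -242, -85 and 34 from the latter, where base 1 is the annotated start.

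ZEB2 (ENSG00000169554) stood at 20.6, 34.9 and 26.8 CPM with Apatinib and at 31.1, 30.02 and 22.3 CPM in the controls. The groups overlapped fully, with the lowest and the highest library both in the Apatinib group and means of 27.5 ± 7.19 and 27.8 ± 4.80 CPM (SD, n = 3 each). Its log2 fold change was -0.02 with a 95% interval from -0.45 to 0.42 and an edgeR FDR of 0.964, and its sign turned without Apatinib replicate 1 or 3 and without Control replicate 1 or 2.

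Taken within each library, the log2 ratio of ZEB1 to ZEB2 in FPKM was 0.61, 0.51 and 0.55 with Apatinib and 1.18, 1.57 and 0.73 in the controls. All 3 Apatinib libraries lay below all 3 controls, with a difference of -0.60, including Control replicate 3 in which ZEB1 itself was low. The exact two-sided permutation test gave p = 0.1, the smallest that 3 against 3 samples allow, and 0.4 after Benjamini-Hochberg adjustment over the 4 ratios computed. The ratio of SNAI2 to SNAI1 differed by 0.55 on the log2 scale (exact permutation p = 0.5) and that of TWIST1 to TWIST2 by 0.13 (exact permutation p = 0.6), and both overlapped between the groups.

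The TWIST factors are basic helix-loop-helix proteins, and neither passed the test. TWIST1 (ENSG00000122691) stood at 11.2, 12.5 and 11.7 CPM with Apatinib and at 8.89, 10.6 and 9.25 CPM in the controls, without overlap. Its log2 fold change was 0.31 ± 0.15 (SE) with a 95% interval from -0.03 to 0.65 and an edgeR FDR of 0.205. TWIST2 (ENSG00000233608) stood at 34.3, 28.6 and 26.5 CPM with Apatinib and at 24.0, 23.1 and 28.0 CPM in the controls, where Control replicate 3 lay above Apatinib replicate 3. Its log2 fold change was 0.25 ± 0.15 (SE) with a 95% interval from -0.07 to 0.57 and an edgeR FDR of 0.273. In FPKM the Apatinib libraries all lay above the controls for TWIST2 too, but Apatinib replicate 3 (15.90) and Control replicate 3 (15.86) were nearly equal.

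CDH1, which encodes E-cadherin, the adhesion molecule of epithelial sheets, was at the limit of detection. It had 2, 1 and 0 counts in Apatinib replicates 1, 2 and 3 and 0, 0 and 2 counts in the controls. A count of 0 allows up to 3 counts by chance, which is between 0.165 and 0.173 CPM in the libraries at 0, a limit that covers counting error only. All 6 libraries lay at or under 3 counts. CDH1 was left out of the main fit by the filter on low counts, so no fold change is given. A difference in CDH1 was not detectable at this depth.

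CDH2, which encodes N-cadherin, the cadherin of neural and mesenchymal cells, varied little within the groups. CDH2 (ENSG00000170558) stood at 65.8, 61.6 and 66.2 CPM with Apatinib and at 54.8, 55.2 and 52.3 CPM in the controls. The groups did not overlap and the replicates of each were close, with means of 64.6 ± 2.53 and 54.1 ± 1.57 CPM (SD, n = 3 each). The log2 fold change was 0.26 ± 0.11 (SE), or 1.19-fold with a 95% interval from 1.01 to 1.42, and the edgeR FDR was 0.151.

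CDH11 (ENSG00000140937), a type II cadherin known from osteoblasts and fibroblasts, was barely expressed. Its libraries held 19, 21 and 26 counts with Apatinib and 23, 21 and 21 counts without, and the groups overlapped. Its log2 fold change was 0.14 with a wide 95% interval from -0.54 to 0.82 and an edgeR FDR of 0.797. The log2 ratio of CDH2 to CDH11 in FPKM differed by -0.44 (exact permutation p = 0.3), and the FPKM of CDH11 followed its counts poorly, with CPM per FPKM varying 2.53-fold over the libraries against 1.09 to 1.35 for the other tested members.

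FN1 (ENSG00000115414), the fibronectin of the pericellular matrix, took between 0.322% and 0.495% of all counts. It stood at 4469, 4826 and 3852 CPM with Apatinib and at 3242, 3213 and 3261 CPM in the controls. Each Apatinib library exceeded each control, and the controls lay close together, with means of 4382 ± 493 and 3239 ± 24.1 CPM (SD, n = 3 each). FN1 rose by a log2 fold change of 0.44 ± 0.13 (SE), or 1.35-fold with a 95% interval from 1.11 to 1.65, with an edgeR FDR of 0.0473.

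This change in FN1 was under the fold limit, so FN1 was not counted as a DEG. Without Apatinib replicate 3 it was one, with a log2 fold change of 0.52 and an FDR of 0.0367 (edgeR). Without Control replicate 1 or 2 the edgeR FDR of FN1 was 0.184 and 0.200, and with DESeq2 it was 0.00838. With at least 10 counts in every sample the edgeR FDR was 0.0560. Over the 8 alternatives that left no library out, the FDR of FN1 ran from 0.00838 (DESeq2) to 0.186.

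**Figure D3:**
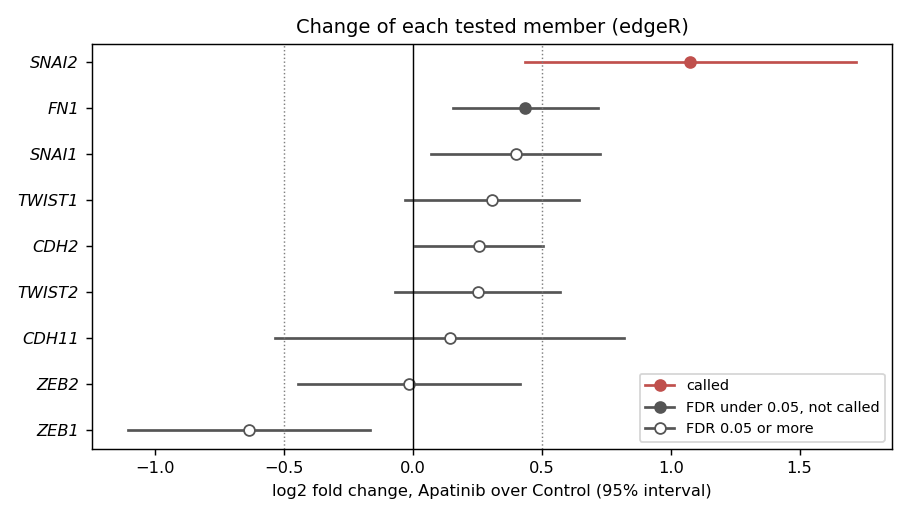
Log2 fold change of Apatinib over Control for the 9 tested members with 95% intervals from edgeR, where dotted lines mark the fold limit of 0.5 in either direction. SNAI2 (red) is the DEG, FN1 (filled grey) has an FDR under 0.05 below the fold limit, and the intervals of TWIST1, TWIST2, CDH11 and ZEB2 include 0.

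**Figure D4:**
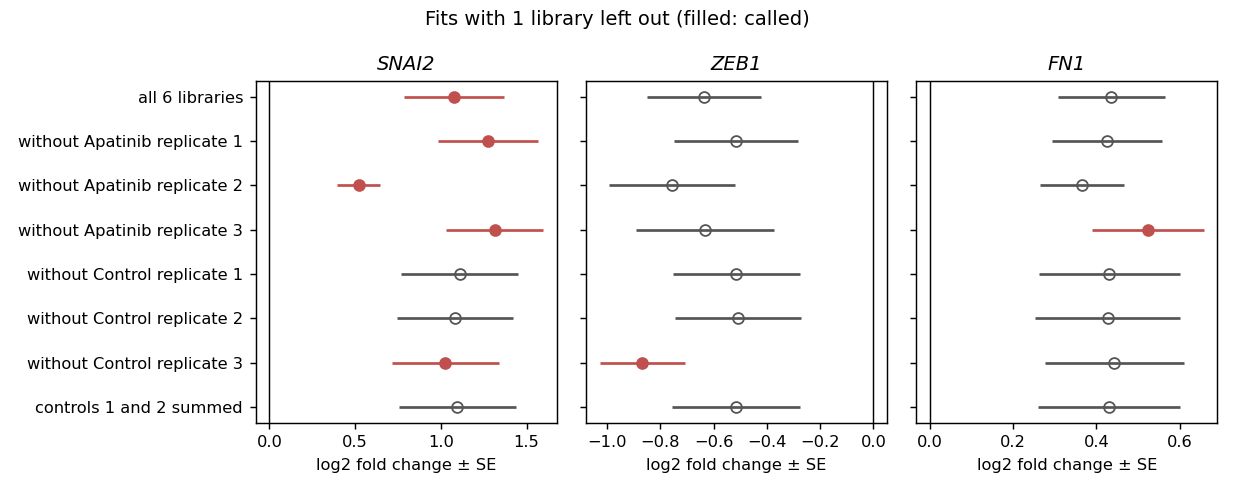
Log2 fold change ± SE of SNAI2, ZEB1 and FN1 in edgeR fits of all 6 libraries, of 5 libraries with each left out in turn, and with Control replicates 1 and 2 summed. Filled red circles mark fits in which the gene was a DEG: SNAI2 falls to 0.52 without Apatinib replicate 2, and ZEB1 is a DEG without Control replicate 3 only.

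The surroundings of the members were described with 11 further lists of genes that act with them or mark the same states. Of 130 tested genes on these lists, 19 were DEGs, 13 upregulated and 6 downregulated, and the median log2 fold change was 0.07. Over all genes tested 11.5% were DEGs, 5.97% up and 5.48% down, so that 19 of 130 lies near the background. The count was 4 without Control replicate 1, 5 without Control replicate 2 and 10 without Apatinib replicate 1, and CDH13, EZH2 and OCLN were among the DEGs in each of the 6 fits with 1 library left out. Exons of 11 of the 19 (CDH3, CDH13, CLDN7, COL3A1, FSTL1, ITGAV, KRT8, LOX, LTBP1, TGM2 and VCAN) overlap another gene, on the same strand for COL3A1 and on both for CLDN7 and FSTL1, so that their counts are less certain.

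**Figure D5:**
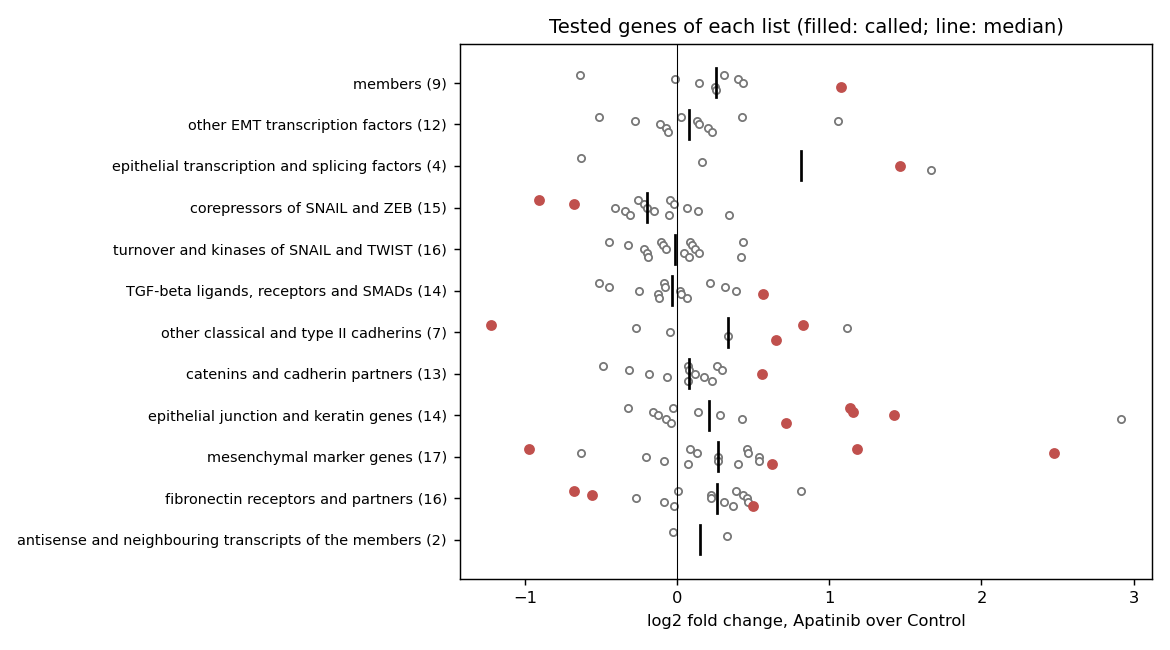
Log2 fold change of every tested gene of the members and of the 11 further lists, 1 point per gene, with the number tested in parentheses. Filled red points are DEGs and the black line is the median of each list, from -0.20 for the corepressors to 0.82 for the 4 epithelial transcription and splicing factors.

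None of the 12 tested genes among the other EMT transcription factors was a DEG by edgeR, against 11.5% of all genes, although 2 had an unadjusted p under 0.05, and 1 was a DEG by DESeq2. Their median log2 fold change was 0.08. TCF4, an E-box binding partner of TWIST proteins, came closest with a log2 fold change of -0.51 and an FDR of 0.0511 (edgeR), and DESeq2 called it at an FDR of 0.0333, as did edgeR with RLE size factors (FDR 0.0499) and without Apatinib replicate 2 or Control replicate 3. SNAI3, the third SNAIL gene, had 39, 22 and 59 counts with Apatinib and 13, 17 and 34 without, a log2 fold change of 1.06 and an FDR of 0.103 (edgeR). It was called with no filter (FDR 0.0165), with the replicate block (FDR 0.0403) and without Apatinib replicate 2 or Control replicate 3 (edgeR). PRRX1, a factor of mesenchymal development, had between 0 and 4 counts.

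Among the factors that hold the epithelial state, 4 of 11 were tested. ESRP1, a splicing regulator of epithelial cells, was upregulated from 8, 11 and 8 counts to 32, 15 and 22 counts, with a log2 fold change of 1.47 and an FDR of 0.0407 (edgeR). That call held only without Apatinib replicate 2 among the 6 fits with 1 library left out, and the gene did not exceed 0.410 FPKM. KLF4 had 143, 703 and 168 counts with Apatinib and 144, 115 and 79 without, with Apatinib replicate 2 far above the rest as for SNAI2, and its log2 fold change was 1.67 at an FDR of 0.0573 (edgeR). It was 0.58 without Apatinib replicate 2, and KLF4 was called with no filter, with the replicate block and without Apatinib replicate 1 (2.03) or 3 (1.99).

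The corepressors through which SNAIL and ZEB proteins act included 2 DEGs of 15, both downregulated, against 5.48% of all genes tested. A negative log2 fold change was found for 12 of the 15, against 49.7% of all genes, and the median was -0.20. EZH2, the histone methyltransferase of the Polycomb complex PRC2, fell from 115 ± 10.4 to 61.5 ± 8.52 CPM (SD, n = 3 each). Its log2 fold change was -0.91 and its FDR 0.00484 (edgeR). SUZ12, another PRC2 subunit, fell by 0.68 on the log2 scale with an FDR of 0.0339 (edgeR), a call that was lost without Control replicate 1 or 2 and without Apatinib replicate 1 or 2. The gene pairs CTBP1 and CTBP2, HDAC1 and HDAC2, and KDM1A, which encodes LSD1, did not pass the test.

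Of 16 tested kinases, ubiquitin ligases and other regulators of SNAIL and TWIST turnover, none was a DEG by edgeR or DESeq2, against 11.5% of all genes by edgeR, 3 had an unadjusted p under 0.05 by either tool, and the median log2 fold change was -0.01. LATS2, a Hippo pathway kinase that phosphorylates Snail, had an FDR of 0.0473 (edgeR) at a log2 fold change of 0.43, which is under the fold limit. FBXW7, a substrate receptor of SCF ubiquitin ligases, had a log2 fold change of -0.45 and an FDR of 0.0892 (edgeR).

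TGF-beta signalling is the best known inducer of the SNAIL and ZEB genes, and 1 of its 14 tested genes was a DEG, against 11.5% of all genes, with a median log2 fold change of -0.03. LTBP1, which tethers latent TGF-beta to the matrix, was upregulated with a log2 fold change of 0.57 and an FDR of 0.0194 (edgeR), and was no longer a DEG without Apatinib replicate 1 or 2 and without Control replicate 1 or 2. TGFB2 had a log2 fold change of 0.39 at an FDR of 0.0696 (edgeR), without overlap between the groups.

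The other cadherins included 3 DEGs of 7 tested, against 11.5% of all genes. CDH13, which encodes the GPI-anchored T-cadherin, rose from 201 ± 5.04 to 357 ± 24.4 CPM (SD, n = 3 each). The log2 fold change of CDH13 was 0.83 at an FDR of 0.00361 (edgeR). CDH3, P-cadherin, rose with a log2 fold change of 0.65 and an FDR of 0.0182 (edgeR), from 17.5 ± 1.87 to 27.4 ± 2.79 CPM. CDH5, the endothelial VE-cadherin, had 17, 15 and 18 counts with Apatinib against 41, 32 and 56 without, and fell by 1.22 on the log2 scale with an FDR of 0.0242 (edgeR). Both calls were lost without Control replicate 1 or 2 and without Apatinib replicate 1, and that of CDH5 also without Control replicate 3. The 4 endothelial markers measured summed to between 15.2 and 17.4 CPM with Apatinib and between 13.9 and 16.2 CPM in the controls, with overlap. VWF, the von Willebrand factor, was a DEG in the opposite direction to CDH5 (log2 fold change 1.52, edgeR FDR 0.0386). It too had few counts, 49, 22 and 53 with Apatinib and 9, 12 and 27 without. KDR, another of the 4, had between 4 and 11 counts per library. The part of the endothelial markers in the result was not tested. By level, T-cadherin at 60.8 to 71.3 FPKM with Apatinib and 33.9 to 36.6 FPKM without lay above CDH2 in each library.

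Of 13 tested catenins and cadherin partners 1 was a DEG, against 11.5% of all genes. It was PTPRF, a receptor tyrosine phosphatase of cell contacts (log2 fold change 0.56, edgeR FDR 0.0180), which was lost without Control replicate 1 or 2 and without Apatinib replicate 1. Beta-catenin (CTNNB1) had a log2 fold change of -0.18 and an edgeR FDR of 0.295. ADAM10, the protease that sheds N-cadherin and E-cadherin, had a log2 fold change of -0.49 and an edgeR FDR of 0.0750.

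The epithelial junction and keratin genes included 4 DEGs of 14 tested, all upregulated, against 5.97% of all genes upregulated, with a median log2 fold change of 0.21. OCLN, the tight junction protein occludin, rose from 65, 78 and 54 to 129, 196 and 166 counts, with a log2 fold change of 1.42 and an FDR of 0.00709 (edgeR). In FPKM, however, the OCLN groups overlapped, and limma on log2(FPKM + 1) gave 0.18 with an FDR of 0.489. KRT8 rose with a log2 fold change of 0.71 and an FDR of 0.0166, CLDN7 with 1.13 and an FDR of 0.0271, and CLDN3 with 1.16 and an FDR of 0.0396 (all edgeR), and these calls were lost without Control replicate 1 or 2 and without Apatinib replicate 1. That of CLDN7 was also lost without Apatinib replicate 2, and that of CLDN3 without Apatinib replicate 3 or Control replicate 3 and with DESeq2 (FDR 0.0700). Both had few counts, for CLDN7 50 to 71 with Apatinib and 19 to 35 without, and for CLDN3 23 to 39 and 13 to 18. A negative log2 fold change was found for 6 of the 14, against 49.7% of all genes. The 6 markers of epithelial cells summed to between 2.77 and 4.41 CPM with Apatinib and between 3.35 and 4.72 CPM in the controls, with overlap, and their part in the result was not tested.

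The mesenchymal marker genes included 4 DEGs of 17 tested, against 11.5% of all genes, with a median log2 fold change of 0.27. COL3A1 rose by 1.18 on the log2 scale at an edgeR FDR of 0.00955. LOX, a collagen crosslinking oxidase, rose by 0.62 (edgeR FDR 0.0221), whereas VCAN, a matrix proteoglycan, fell by 0.97 on the log2 scale (edgeR FDR 0.0104). The calls of LOX and VCAN were lost without Control replicate 1 or 2, and that of COL3A1 without Control replicate 1. Of the 8 alternatives that left no library out, 2 lost the call of COL3A1, with its log2 fold change as low as 0.535, 3 that of LOX and 2 that of VCAN. VIM had a log2 fold change of 0.27 and an edgeR FDR of 0.177.

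Receptors and partners of fibronectin included 3 DEGs of 16 tested, against 11.5% of all genes, with a median log2 fold change of 0.26. The integrin subunit ITGA5, of the main fibronectin receptor, had an FDR of 0.0375 (edgeR) at a log2 fold change of 0.46, and the syndecan SDC4 one of 0.0365 at 0.43, both under the fold limit as for FN1 itself. FSTL1 rose with a log2 fold change of 0.50 and an FDR of 0.0181 (edgeR), just over the limit, and fell under it with RLE size factors and with at least 10 counts in every sample (0.50 in both, rounded). TGM2, a transglutaminase that binds fibronectin, fell by 0.67 on the log2 scale (edgeR FDR 0.0131), and ITGAV fell by 0.56 (edgeR FDR 0.0486) although its groups overlapped in CPM. These 3 calls were lost without Control replicate 1 or 2, that of ITGAV also without Apatinib replicate 1 or 2, and that of FSTL1 also without Apatinib replicate 2.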

How the data were processed

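RNA of 3 Apatinib and 3 Control samples was sequenced by the study on an Illumina NovaSeq, and the submitters' processing notes name CASAVA, STAR 2.7.1a and the build hg19. The authors deposited whole-number counts per gene, not normalized, and FPKM values per sample. The program that counted, its annotation and its use of strand are not given in the sources used here. No coordinates of the files were used, and 1 column headed as a control inside the FPKM table of Apatinib replicate 1 was left out. Overlaps of exons were read from GENCODE annotation of another build (GRCh38), by Ensembl identifier.

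The counts went through edgeR 4.0.16 in R 4.3.3 (filterByExpr, TMM factors 0.952 to 1.03, quasi-likelihood F test, Benjamini-Hochberg adjustment over 16290 genes). The limits for a DEG (FDR 0.05, log2 fold change 0.5) are those of the study's methods, which used DESeq2. Alternatives were DESeq2 1.42.0, RLE size factors, no filter, at least 10 counts in every sample, a block for the replicate number, each sample left out, Control replicates 1 and 2 summed, limma 3.58.1 for FPKM on a log2 scale with a pseudocount of 1 or 0.1, over genes with a mean FPKM above 0.5, the FDR alone, and glmTreat. Scripts were tested on simulated data. Intervals are 95% intervals of the model. Libraries held 17043314 to 22067558 counts, a precision that leaves CDH1 and CDH11 poorly measured.

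The members and the lists were chosen with earlier results of these data known. The genes named are the 10 members, the DEGs of each further list, its 2 tested genes with the smallest p and the 3 genes most like SNAI2, except 1 gene that is not reported here. PRRX1, VIM, CTNNB1, ITGA5, SDC4, CLDN1, KRT18, ILK, the corepressors that did not pass and the marker genes of cell types were named after their values were seen. Of 164 symbols on the 11 lists 161 were found, 5 of them by identifier. E-boxes were searched in RefSeq promoter windows. Of the marker lists, 3 of 8 adipocyte and 2 of 5 leukocyte markers had 0 counts throughout.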

Additional observations from a re-analysis of the deposited data

How the results depend on the processing

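The number of members that were DEGs, 1, became 2 with no filter, with the FDR alone and with the replicate block, 0 with Control replicates 1 and 2 summed, 0 in both limma fits and 0 with glmTreat against 0.5, and ranged from 0 to 2 with 1 library left out. DEGs among all genes, 1866, became 292 with the controls summed, 733 and 328 with limma on log2(FPKM + 1) and log2(FPKM + 0.1), and 74 with glmTreat, with a range from 275 to 2594 when 1 library was left out. On the 11 lists 19 DEGs became 5, 10 and 3 in the same first 3 settings, with a range from 4 to 25. SNAI2 was no DEG with DESeq2 (1.08), with the controls summed (1.09) and with limma (0.86 and 0.93), and its log2 fold change ranged from 0.52 to 1.31 with 1 library left out. ZEB1 became a DEG with DESeq2 (-0.63) and no filter (-0.62), with a range from -0.87 to -0.51. FN1 ranged from 0.37 to 0.52. The sign of ZEB2 turned with the controls summed (0.048), with a range from -0.22 to 0.16, and that of ZEB1-AS1 likewise (0.045), with a range from -0.20 to 0.094. The cause of these shifts was not tested. The fits with a library left out and with the controls summed held fewer samples than the main fit. SNAI1, TWIST1, TWIST2, CDH2 and CDH11 stayed on their side of the threshold with their direction in each alternative that could be fitted. CDH11 was under the FPKM filter of limma, and FN1 became a DEG without Apatinib replicate 3 and with the FDR alone. FSTL1 was called in neither limma fit (0.46 and 0.47) and CLDN3 in neither (0.48 and 1.02).

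Samples with the same replicate number did not deviate together (r = -0.26, 0.081 and -0.22), so the numbers were not taken as pairs. With the replicate block ZEB1 was a DEG (log2 fold change -0.60, edgeR FDR 0.0185), and 2215 genes in all and 23 on the lists were. The 4 ratios stayed within 1 SD with FPKM + 0.1 and with each library left out.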

Other observations

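The counts and the FPKM values were not made from the same assignment of reads for every gene. Of 13888 genes with a mean FPKM above 1, 244 had at most 6 counts over the 6 libraries together. ILK, the integrin-linked kinase of the fibronectin receptor list, had between 6 and 18 counts per library beside 73.5 to 100 FPKM, and CD68 had at most 1 count per library beside 1.79 to 11.8 FPKM. None of the 9 tested members was among such genes.

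Apatinib replicate 2 stood at least 2-fold above the other 5 libraries in SNAI2, KLF4 and CLDN1, among other genes. CLDN1, a tight junction claudin, had 6, 99 and 10 counts with Apatinib and 4, 11 and 1 without.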
